A study of Mus musculus with 169 samples.

Results

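The cytosolic ribosomal protein genes are the genes that encode the protein parts of the ribosome of the cytosol. They were taken as every array probe whose transcript identifier maps to a symbol Rpl or Rps followed by a digit, or to Rpsa, Rplp0, Rplp1 or Rplp2. The Rps6k kinases, Rps19bp1 and named pseudogenes were left out. This gave 85 genes measured by 172 probes, out of 31927 features tested, and all 172 probes passed the filter on dim probes. The brightest probe stood for each gene. By symbol, 52 of the 85 genes were counted with the large subunit, its stalk included, and 33 with the small subunit. The rule goes by name alone, so a member need not encode a part of the ribosome. The probe of Rps4l, for example, is on the record of a non-coding transcript.

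The RNA came from microglia of mice on a C57B/6J background that were either wild type (WT, Grn+/+) or lacked progranulin (KO, Grn-/-), a secreted and lysosomal protein. The cells were taken from brains of mice of 4 and 16 months on Percoll gradients and sorted with antibodies to CD11b, CD45 and Ly6G, and each sample was hybridised to a single-colour Agilent array. The younger age was covered by 7 arrays, 4 WT and 3 KO, and the older by 8 arrays, 4 of each genotype. The comparison asks how microglial expression differs without progranulin in young and in old mice. The WT arrays 1 and 2 at 16 months differed by a scaled median absolute deviation of 0.123 on the log2 scale and arrays 3 and 4 by 0.0945, against 0.382 to 1.28 in the other pairs of a group and an SD of 0.172 to 0.288 between repeat spots of 1 probe, so each of these pairs was averaged and counted as 1 sample. This left 4 WT and 3 KO replicates at 4 months and 2 WT and 4 KO replicates at 16 months. The labels do not say which replicates are separate animals or pools, so p-values measure the spread between these samples. The main fit gave each gene 1 spread over all 4 groups, so tests at 16 months also drew on the 4-month replicates. The SD was larger in KO at 16 months than in WT at 4 months for 82 ribosomal protein genes (medians 0.79 and 0.19). With the 16-month arrays fitted alone 3 of these genes were higher (5.47% of all features), against 23 in the main fit (19.3% of all features). The part of the unequal spread in this was not tested. Each age had a slide to itself, so the effects of age and of slide cannot be told apart, and neither can those of genotype and of position on the slide.

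Ribosomal proteins, but for some of the stalk, are present in equal numbers in each ribosome, and their messages are among the most abundant in a cell. The messages of most of them begin with a short run of pyrimidines, the terminal oligopyrimidine tract, through which the mTOR kinase and the RNA-binding protein Larp1 set their translation and stability. Microglia are the resident macrophages of the brain, and their state changes with age and lysosomal stress.

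The promoter windows below show such a start in genes picked from the 13 that have it, of 64 with a window. They include genes with positive and with negative differences at 16 months, described later. Rps2, Rps19 and Rpl7l1 from the upper end and Rps28 from the lower end had no such run at the annotated start. Each line gives 30 bases before the annotated start and 20 from it on, 5′ to 3′ on the gene's strand, from RefSeq on GRCm38.p6. Capitals mark the unbroken run of pyrimidines from the start.
Rpl15, chr14:18270967-18271016, minus strand: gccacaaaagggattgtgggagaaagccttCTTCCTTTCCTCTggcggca
Rpl14, chr9:120571487-120571536, plus strand: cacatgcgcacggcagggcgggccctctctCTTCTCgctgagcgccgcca
Rps6, chr4:86857348-86857397, minus strand: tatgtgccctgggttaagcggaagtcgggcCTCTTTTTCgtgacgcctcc
Rpl38, chr11:114668550-114668599, plus strand: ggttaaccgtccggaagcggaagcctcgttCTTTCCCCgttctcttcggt
Rps21, chr2:180257349-180257398, plus strand: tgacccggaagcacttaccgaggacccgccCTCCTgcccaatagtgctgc
Rps27, chr3:90213629-90213678, minus strand: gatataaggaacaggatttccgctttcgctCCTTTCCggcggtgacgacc
A window was listed for 64 of the 85 genes, 76 windows in all. A C at the annotated start followed by 4 or more pyrimidines was found in 13 windows (17.1%), against 2.51% of all 32851 windows. The letters CCGGAAG, on either strand in the 250 bases before the start, were in 20 of the 76 windows (26.3%), against 6.91% of all. The 13 genes with a pyrimidine start at the annotated base had a median KO minus WT difference of 0.54 at 16 months. That of the other 51 genes was 0.65. By the test described below 4 of the 13 and 13 of the 51 were higher, beside 19.3% of all features. Annotated starts can be off by some bases, so a window without a match says only that these letters are not at that base.

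Levels are log2 of the processed signal over the array's 75th percentile, so a level of 7 is well above most features and the floor lies at -4.94. The 75th percentile ranged from 1306 to 1649 (WT) and from 1072 to 1752 (KO) at the younger age, and from 1010 to 1511 (WT) and from 507 to 1037 (KO) at the older, and no spot was saturated. Grn itself was at 6.13 to 6.32 in WT and at -3.36 to -2.06 in KO replicates at 4 months; at 16 months it was at 4.61 and 5.46 in WT and not well above background on any KO array. The summed linear level of 12 microglia markers at 16 months ranged from 1140 to 2100 times the 75th percentile in WT and from 250 to 605 in KO, and 10 of the 12 were lower. That of 10 choroid plexus markers ranged from 329 to 647 in WT and from 1030 to 1940 in KO, with 5 of 10 higher, and all 10 were above background in each group. The red blood cell marker Hba-a1 ranged from 0.125 to 0.251 times the 75th percentile in WT and from 0.744 to 11.7 in KO at this age. At 4 months the microglia marker sums ranged from 1660 to 2130 in WT and from 1580 to 2480 in KO. The choroid plexus sums ranged from 11 to 128 and from 189 to 301. Sums of 7 neutrophil markers ranged from 34.4 to 120 in WT and from 204 to 258 in KO at 4 months. At 16 months they ranged from 77.7 to 379 in WT and from 0.587 to 249 in KO. These markers stand beside every result below, and their part in those results was not tested. In such bulk samples, fewer cells of a type and less RNA per cell cannot be told apart.

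At 4 months the ribosomal protein genes did not pass the test in KO microglia. In limma's moderated test over all features with Benjamini-Hochberg adjustment, 0 of 85 genes had an adjusted p under 0.05, where 0.0251% of all features did (0.0157% higher and 0.0094% lower), and 0 of 85 had an unadjusted p under 0.05, where 6% of all features did. The median KO minus WT difference was 0.175 on the log2 scale, against 0 over all features, and 75 of the 85 differences were above 0. The median level of the 85 genes was 6.96, 6.87, 6.70 and 6.67 in the WT replicates and 6.66, 7.39 and 6.93 in the KO replicates. KO replicate 2 was the high one. In it 79 of 84 measured genes were above all 4 WT replicates, against 1 of 83 in KO replicate 1 and 23 of 85 in KO replicate 3, where 33.4%, 17.4% and 17.4% of all features were. Without it the median difference was -0.02. In 1 gene, Rpl22l1, every measured KO replicate was above every WT replicate (5% of all features), and in none was every one below (6.67%). Without Rpl10l, which was well above background on 1 of 4 WT and 2 of 3 KO arrays, the highest 4-month differences were those of Rpl21, Rpl28 and Rps27, at 1.16, 0.56 and 0.49. The lowest were those of Rps4l, Rps23rg1 and Rps10, at -0.58, -0.34 and -0.17. Rps27 lacks a value in KO replicate 1 by this probe, and its other probes gave 0.01, 0.20 and 0.24. Rps10 lacks a value in KO replicate 2, the high one.

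**Figure D1:**
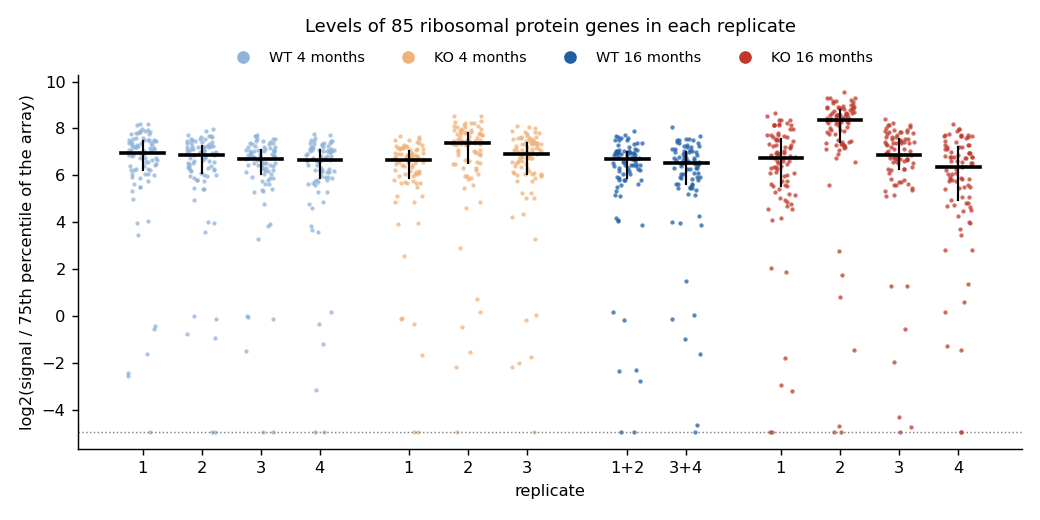
Level of each of the 85 genes in every replicate (points, log2 of signal over the array's 75th percentile), with the median as a horizontal bar and the quartiles as a vertical line; the dotted line is the floor of -4.94. The medians lie between 6.51 and 6.96 in the WT replicates, and KO replicate 2 stands out at either age, with 7.39 at 4 months and 8.35 at 16 months.

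At 16 months the genes split by member and by replicate. Members such as Rps2, Rps19 and Rpl7l1 were higher in the sorted KO samples, and Rps4l was lower. The microglia marker sums of these KO samples lay below those of WT, as given above, and the part of this was not tested. In all, 24 of 85 genes (28.2%) passed an adjusted p of 0.05, 23 of them higher (27.1%) and 1 lower (1.18%). Over all features 34.3% passed, 19.3% higher and 15% lower, so the share of members that passed was no larger than that of features in general. An unadjusted p under 0.05 was found in 35 members (41.2%), against 44.7% of all features. The median difference was 0.66 and the quartiles 0.096 and 1.11, with 67 of 85 above 0, against a median of 0.12 over all features. Among the 1532 other features with a mean level of 5 or more, a range that holds 75 of the 85 members, the median was 0.654 and 47.8% passed. In 40 of 85 genes every KO replicate was above every WT replicate (24.2% of all features) and in 1 every one was below (17.9%). The median depends on how arrays are scaled: with quantile normalization it was -0.01, with 16 genes higher and 10 lower, where 20.2% and 17% of all features were. The counts also rest on single samples. Without WT replicate 1 and 2, 9 members were higher (12% of all features), without WT replicate 3 and 4, 14 (13.9%), and without KO replicate 4, 35 (22.3%).

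**Figure D2:**
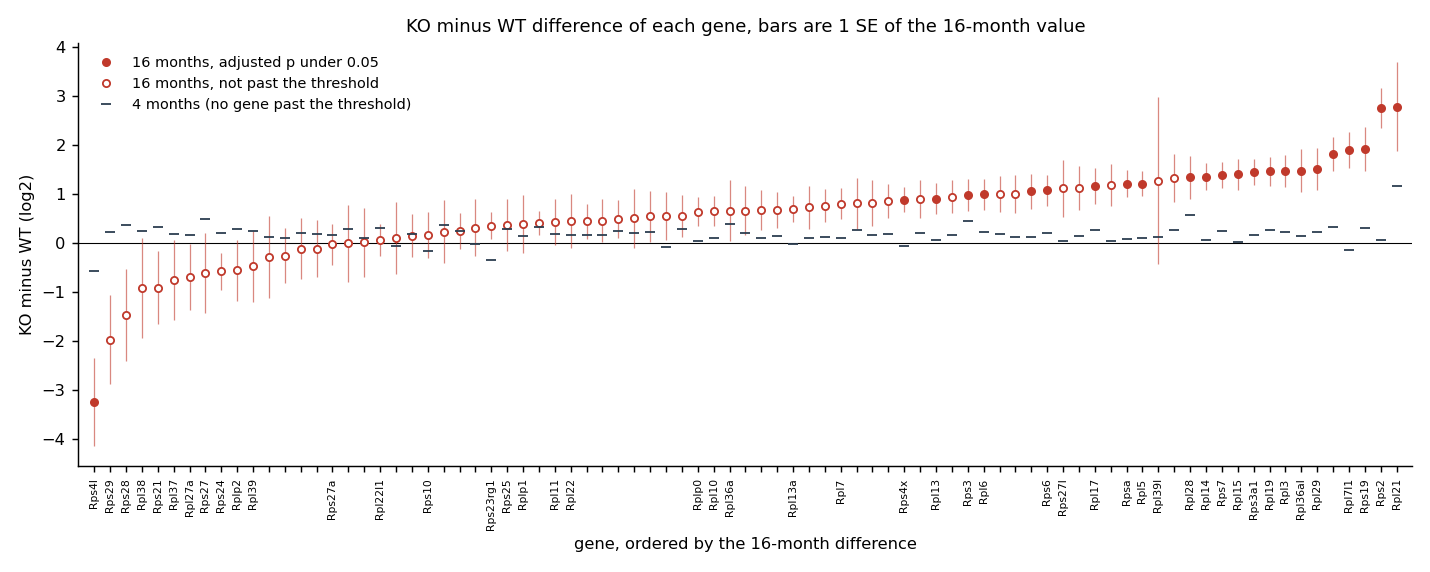
KO minus WT difference of each of 83 genes (log2) at 16 months (circles, with 1 SE; filled where the adjusted p is under 0.05) and at 4 months (dashes), ordered by the 16-month value, with the names of members given in the text. The 16-month values run from -3.25 (Rps4l) to 2.78 (Rpl21), while most 4-month values lie near 0. Rpl3l and Rpl10l, not well above background on any array of a 16-month group, are not drawn.

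Rps2, a small subunit protein near the entry of the messenger RNA channel, had the difference with the lowest adjusted p. Its level was 4.10 and 3.87 in the WT replicates and 7.01, 7.34, 6.51 and 6.07 in the KO replicates at 16 months, with no overlap. The difference was 2.75 (SE 0.40, adjusted p = 0.000762 by limma), a 6.73-fold higher signal. A second Rps2 probe gave 2.75 (SE 0.26). At 4 months Rps2 was at 5.49, 5.41, 5.30 and 4.61 in WT and 4.86, 5.89 and 5.02 in KO, so the groups overlapped. The difference between WT at 16 and at 4 months was -1.22 (SE 0.40, adjusted p = 0.138 by limma) and did not pass.

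Rps19, the gene most often mutated in Diamond-Blackfan anemia, was at 3.87 and 3.99 in WT and at 5.44, 7.14, 5.70 and 5.09 in KO replicates at 16 months. Its difference was 1.91 (SE 0.45, adjusted p = 0.00875 by limma). All 4 KO replicates lay above the WT replicates, and KO replicate 2 was the highest.

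Rps3a1 and Rps7 of the small subunit, and Rpl3, Rpl14, Rpl15, Rpl19, Rpl29 and Rpl36al of the large one, formed a group with differences of 1.35 to 1.51. Rpl3 reaches towards the peptidyl transferase centre of the ribosome. Rpl14 was at 6.93 and 6.91 in WT and at 8.35, 8.88, 7.94 and 7.90 in KO, a difference of 1.35 (SE 0.28, adjusted p = 0.00455 by limma). Rps7 was at 6.72 and 6.66 in WT and at 8.17, 8.58, 7.83 and 7.70 in KO, a difference of 1.38 (SE 0.27, adjusted p = 0.0032 by limma). In the 3 members Rps2, Rps3a1 and Rps7 the call also held when the 16-month arrays were fitted alone. There 3 of 85 genes passed, all higher, beside 5.47% of all features higher and 5.23% lower.

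Rpl21 had the highest difference, 2.78, but a dim and variable probe. It was at -2.79 and -0.13 in WT and at 2.05, 1.76, 1.28 and 0.18 in KO (SE 0.91, adjusted p = 0.0366 by limma), without WT replicate 1 and 2 its difference was 1.45 (adjusted p = 0.362), and its second probe gave 1.45 (SE 0.84). Rps4x, Rpl13, Rps3, Rpl6, Rps6, Rpl17, Rpl5, Rpsa and Rpl28 were also higher, with differences of 0.88 to 1.34. Rpl13, Rps3, Rpl6, Rpl5, Rpsa, Rpl28, Rps4x and Rps3a1 lost their call with quantile normalization. Over 23 alternative fits the call was lost in 16 for Rpl13, 13 for Rps3 and 12 for Rpl28. The other probes of Rpl13 gave -0.04 (SE 0.31) and 0.03 (SE 0.35). Rps6, the ribosomal substrate of the S6 kinases, was at 7.06 and 7.04 in WT and at 8.14, 8.87, 7.87 and 7.61 in KO, a difference of 1.07 (SE 0.32).

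**Figure D3:**
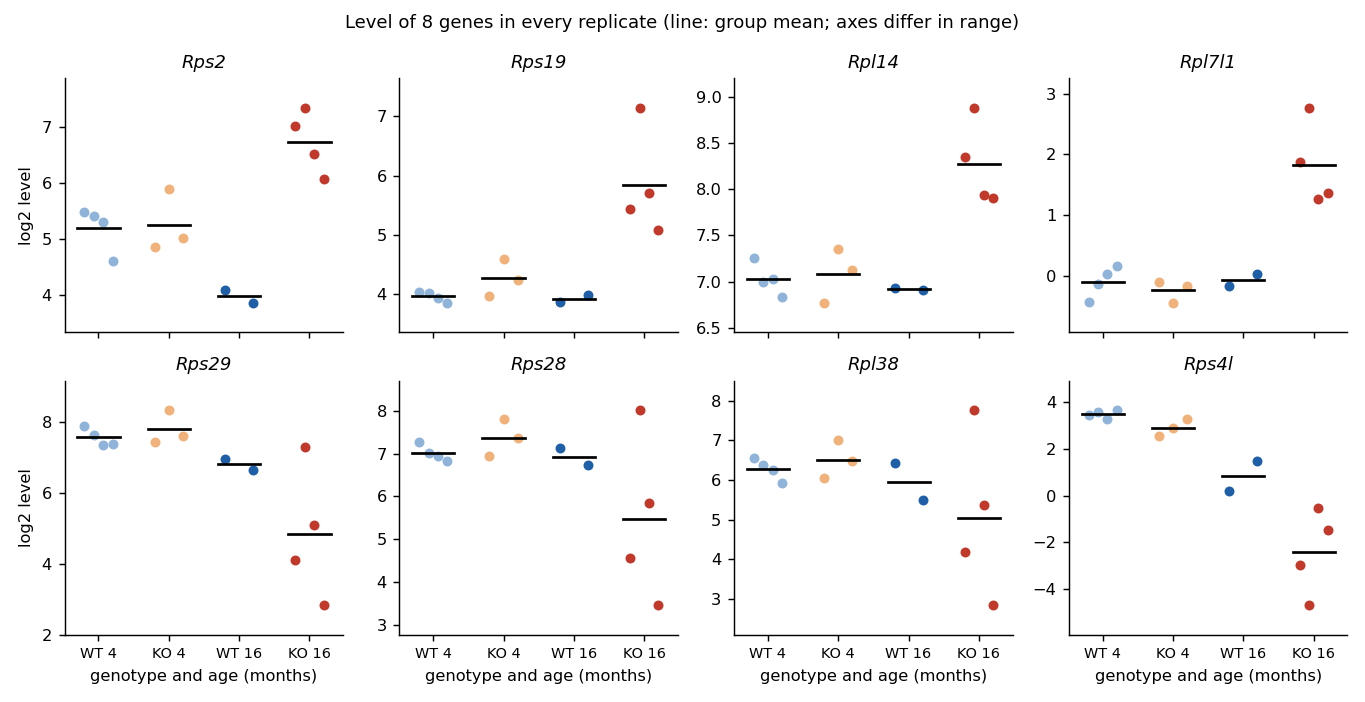
Level (log2) of 8 genes in every replicate of the 4 groups, with the group mean as a line; the range of the axis differs between panels. Rps2, Rps19, Rpl14 and Rpl7l1 separate the 16-month KO from the WT replicates, while Rps29, Rps28 and Rpl38 span 4.48 to 4.93 log2 units among the KO replicates.

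The lower end of the order held Rps4l, Rps29, Rps28, Rpl38, Rps21, Rpl37, Rpl27a, Rps27, Rps24, Rplp2 and Rpl39. Of these, Rps4l alone passed. Rps29 was at 6.94 and 6.65 in WT and at 4.09, 7.30, 5.10 and 2.82 in KO replicates, a difference of -1.97 (SE 0.91, adjusted p = 0.12 by limma). Rps28 was at 7.13 and 6.73 in WT and at 4.55, 8.01, 5.84 and 3.45 in KO, a difference of -1.47 (SE 0.94, adjusted p = 0.257 by limma). Rpl38, whose loss in mice alters the patterning of the skeleton, was at 6.43 and 5.49 in WT and at 4.19, 7.76, 5.38 and 2.83 in KO, a difference of -0.92 (SE 1.02, adjusted p = 0.528 by limma). In all 3 genes KO replicate 2 was above the WT replicates and the other 3 KO replicates were below them. Without KO replicate 2, 8 members were lower (16.1% of all features), namely Rps29, Rps28, Rpl38, Rps21, Rpl37, Rpl27a, Rps24 and Rps4l, and 21 were higher (of all features, 20.3%), with adjusted p of 0.00427 for Rps29 and 0.0112 for Rps28 by limma. Rpl27a is low by its brightest probe alone: its other probes gave 0.56 (SE 0.54) and 1.05 (SE 0.24, adjusted p = 0.00951 by limma over all probes). The brightest probe of Rpl39 gave -0.48 (SE 0.73). A probe of Rpl39 of nearly the same level gave 0.29 (SE 0.76), and a dim one -0.21 (SE 0.81).

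The KO replicates at 16 months differed widely from each other. The median level over the 85 genes was 6.75, 8.35, 6.86 and 6.37 in the KO replicates, against 6.68 and 6.51 in WT. KO replicate 2 had the highest value of the 4 in 79 of 85 genes and KO replicate 4 the lowest in 71, where 37.9% and 35% of all features were. Of the 85 genes, 82 were above both WT replicates in KO replicate 2, 49 in replicate 1, 63 in replicate 3 and 42 in replicate 4. Over all features the shares were 45.2% in replicate 2, 43.5% in replicate 1, 44.1% in replicate 3 and 35.2% in replicate 4. In replicate 4, 38 genes were below both (33.6% of all features). The median range of a gene was 1.8 log2 units over the 4 KO replicates at 16 months and 0.42 over the 4 WT replicates at 4 months. For the other features with a mean level of 5 or more these were 1.32 and 0.38, and for all features 1.33 and 0.66. KO replicate 2 was also the dimmest array, with a 75th percentile of 507 and 54.2% of probes well above background. Its choroid plexus marker sum was the highest, 1940, against 1500, 1390 and 1030 in KO replicates 1, 3 and 4; its microglia sum was 291 against 250, 464 and 605. The sum of 7 neutrophil markers was 0.735 in KO replicate 2 and 0.587 in replicate 4, against 249 and 216 in replicates 1 and 3. The part of these in the spread was not tested.

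**Figure D4:**
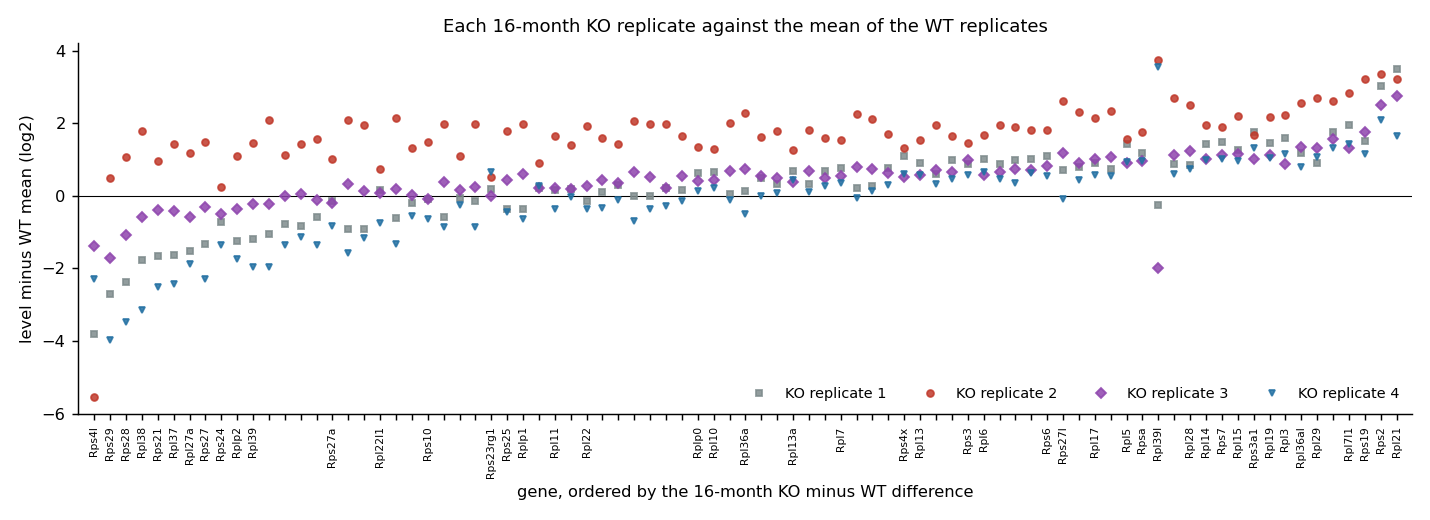
Level of each of the same 83 genes in each 16-month KO replicate minus the mean of the WT replicates (log2), ordered by the KO minus WT difference, with the names of members given in the text. Replicate 2 lies above the other 3 in most genes and replicate 4 below; towards the left end the replicates spread apart, from 0.50 (replicate 2) to -3.97 (replicate 4) in Rps29, and from Rpl28 to the right end all 4 are above 0.

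The difference between the KO effects at 16 and at 4 months passed in 4 of 85 genes, all with a larger difference at 16 months (4.71%, against 13.4% of all features, 6.84% in this direction and 6.51% in the other). An unadjusted p under 0.05 was found in 16 genes, against 30.3% of all features. Leaving out 1 replicate at a time gave 1 to 10 genes, most without KO replicate 4 at 16 months. For Rps2 it was 2.70 (SE 0.54, adjusted p = 0.0111), for Rpl7l1 2.03 (SE 0.50, adjusted p = 0.0243), for Rpl14 1.29 (SE 0.37, adjusted p = 0.0453) and for Rps3a1 1.28 (SE 0.36, adjusted p = 0.0407), all by limma. The calls for Rpl14 and Rps3a1 were lost without any 1 of the WT replicates at 4 or 16 months. They were also lost without KO replicate 1 or 3 at 4 months or replicate 1 at 16 months. Rpl7l1 lost its call without KO replicate 2 or 3 at 4 months or without WT replicate 1 and 2 at 16 months. Rps2 kept its call in each of these fits. Between WT microglia of 16 and 4 months, 0 of 85 genes passed (3.47% of all features, 1.79% higher and 1.69% lower at 16 months) and 4 had an unadjusted p under 0.05 (17.8% of all features), Rps2, Rps4l, Rps3 and Rps23rg1, each with a negative 16 minus 4 months difference. The median of the 85 differences was -0.232, close to the -0.19 of all features.

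The counts below stand beside the 19.3% of all features that were higher and the 15% that were lower at 16 months. Of the large subunit 14 of 52 genes were higher and none lower, with a median of 0.675, and 9 of 33 of the small subunit were higher and 1 lower, with a median of 0.36. At the stalk, which recruits the GTPases of translation, Rplp0 had 0.64 (SE 0.30), Rplp1 0.39 (SE 0.59) and Rplp2 -0.56 (SE 0.62), and none passed. Rpsa, which also serves as a laminin receptor, was at 5.6 and 5.94 in WT and at 6.94, 7.52, 6.73 and 6.72 in KO, a difference of 1.21 (SE 0.28, adjusted p = 0.00717 by limma).

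Of 9 genes of Diamond-Blackfan anemia, an inherited failure of red cell formation, 3 were higher at 16 months, Rps19, Rps7 and Rpl5, and none was lower, again beside 19.3% and 15% of all features. Over these 9 listed genes the median was 0.42, and the range ran from -0.58 (Rps24) to 1.91 (Rps19). The list need not hold every gene of this anemia. Rpl5 and Rpl11 bind the ubiquitin ligase Mdm2 together when ribosome assembly is disturbed. Rpl5 was at 6.47 and 7.01 in WT and at 8.18, 8.30, 7.64 and 7.68 in KO, a difference of 1.21 (SE 0.26). Rpl11 was at 7.62 and 7.50 in WT and at 7.73, 9.21, 7.79 and 7.19 in KO, a difference of 0.42 (SE 0.47) that did not pass. Among other members with a known special role, Rps27a, made as a fusion with ubiquitin, had -0.03 (SE 0.42), Rpl13a, which can repress translation of inflammatory messages once released, 0.69 (SE 0.26), Rpl10, which joins the large subunit late, 0.65 (SE 0.30) and Rps25 0.36 (SE 0.53), and none of the 4 passed. Dimmer probes did pass for Rpl13a, at 1.27 (SE 0.32), and for Rps25, at 1.81 (SE 0.36).

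Paralogs here are the 8 members whose symbol marks a second form of a ribosomal protein. Of these, 2 were higher at 16 months (Rpl7l1 and Rpl36al) and 1 lower (Rps4l), near the 19.3% and 15% of all features. The probe of Rps4l is on the record of a non-coding transcript. Rpl7l1 was at -0.17 and 0.03 in WT and at 1.88, 2.77, 1.26 and 1.36 in KO, a difference of 1.89 (SE 0.37, adjusted p = 0.00351 by limma), beside 0.80 (SE 0.32, adjusted p = 0.0795 by limma) for Rpl7. Rps4l was at 0.19 and 1.48 in WT and at -2.96, -4.70, -0.54 and -1.46 in KO, a difference of -3.25 (SE 0.90, adjusted p = 0.0183 by limma), and it was well above background on 3 of the 4 KO arrays. Its call was lost without WT replicate 3 and 4 (-2.61, adjusted p = 0.141 by limma). Its X-linked relative Rps4x was at 5.63 and 5.92 in WT and at 6.87, 7.09, 6.28 and 6.37 in KO, a difference of 0.88 (SE 0.25, adjusted p = 0.0193 by limma), which came to 0.09 (adjusted p = 0.794 by limma) with quantile normalization. At 4 months Rps4l was at 3.47, 3.58, 3.27 and 3.66 in WT, and its WT difference between 16 and 4 months, -2.66 (SE 0.90, adjusted p = 0.146 by limma), did not pass. In the other pairs, Rpl36al had 1.47 (SE 0.44) and Rpl36a 0.66 (SE 0.62), Rps27l 1.11 (SE 0.59) and Rps27 -0.61 (SE 0.81), and Rpl22l1 0.06 (SE 0.33) and Rpl22 0.44 (SE 0.55). The difference within a pair was not tested. Rpl39l ranged from -4.94 to 0.80 over the 16-month replicates. Rpl3l, a form of striated muscle, and Rpl10l, a form of the testis, were not well above background on any WT (Rpl3l) or any KO (Rpl10l) array at 16 months, so no difference is given for them and they are left out of the order.

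For 52 genes more than 1 probe was kept, 139 probes in all. The dimmest probe of a gene had the larger 16-month difference in 37 of the 52 genes. The median difference was 0.66 for the brightest and 0.96 for the dimmest probes, and 13 genes were higher by the brightest and 23 by the dimmest probe. Over all 172 probes, 56 were higher and 1 lower. These came from 38 genes with a higher and 1 gene with a lower probe, and no gene had probes that passed in opposite directions. The calls of this paragraph come from a fit of all 45616 kept probes. The share of all probes that passed in it is not given here, so the counts do not set the members against other probes. In this fit the brightest probe of Rpl13 did not pass (adjusted p = 0.0512 by limma). Many ribosomal protein genes have processed pseudogenes that are nearly identical in sequence, and the probe sequences were not used here, so a signal can include such copies.

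The factors around the ribosome were counted from fixed lists, to be read against the 19.3% of all features that were higher and the 15% that were lower. At 16 months 6 of 9 elongation factors and partners were higher and none lower, with a median of 1.06. Among them Eef2, which moves the ribosome along the message, had 1.24 (SE 0.21, adjusted p = 0.00148 by limma). Of 30 initiation factors 11 were higher and 1 lower, with a median of 0.52. The subunits Eif3i, at 2.89 (SE 0.51), and Eif3h, at 1.74 (SE 0.30), were among the higher ones, and the scaffold Eif4g1, at -1.33 (SE 0.47), was lower. Fau and Rack1, ribosomal proteins whose names fall outside the rule, had 0.48 and 0.61, and neither passed.

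Of 32 ribosome assembly factors 10 were higher and 4 lower (19.3% and 15% of all features). Pno1, needed for the last steps of the small subunit, rose by 2.65 (SE 0.24, adjusted p = 7.77e-05 by limma), and the nucleolar proteins Ncl and Npm1 by 1.64 (SE 0.39) and 1.18 (SE 0.30). Fbl, the methyltransferase of ribosomal RNA, had -2.04 (SE 0.29) and was lower, as were Nop2, Nop56 and Sdad1. Of 12 subunits and partners of RNA polymerase I, which transcribes ribosomal RNA, 2 were higher and 1 lower. Of 15 regulators 2 were higher, the kinase Mtor and its activator Rheb, with 1.61 (SE 0.45) and 1.43 (SE 0.30). The 7 lower ones were Myc, Akt1, Rptor, Tsc1, Rps6kb1, Eif4ebp2 and Larp1; Myc, which drives ribosome production, had -2.25 (SE 0.63) and Larp1 -0.79 (SE 0.23). At 4 months no gene of any of these lists passed.

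The mitochondrial ribosome gave another picture. Of its 77 genes, encoded in the nucleus and named Mrpl or Mrps, 59 were higher at 16 months and 1 lower (19.3% and 15% of all features), with a median of 1.72 against 0.66 in the 85 cytosolic genes. The sets differ in brightness: the median level was 3.75 in the mitochondrial genes, with 5 of 77 at 5 or more, and 6.82 in the cytosolic ones, with 75 of 85. The part of brightness in the difference between the sets was not tested. In 63 of the 77 every KO replicate was above every WT replicate (24.2% of all features). Their median level was 3.23 and 2.89 in the WT and 4.45, 5.43, 4.71 and 4.2 in the KO replicates, so that all 4 KO replicates were above the WT ones, whereas KO replicate 4 was below them for the cytosolic genes. With quantile normalization 51 mitochondrial genes were higher (20.2% of all features) and their median was 1.17. With the 16-month arrays fitted alone 25 were higher (5.47% of all features). At 4 months no gene of either set passed, and the mitochondrial median was 0.06.

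**Figure D5:**
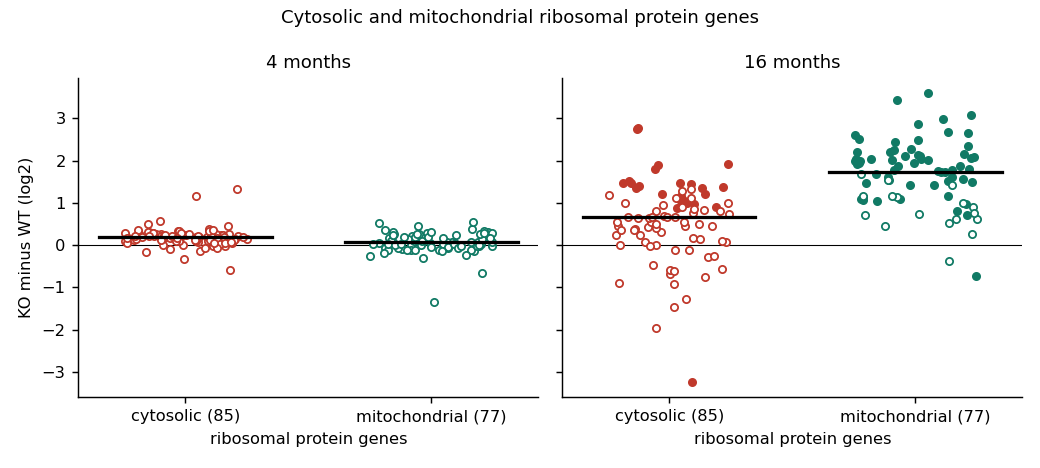
KO minus WT difference (log2) of the 85 cytosolic and the 77 mitochondrial ribosomal protein genes at 4 and at 16 months, with the median as a bar; filled points have an adjusted p under 0.05. At 16 months the medians are 0.66 and 1.72, with 23 and 59 genes higher and 1 lower in each set.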

How the data were processed

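Agilent arrays of sorted microglia were read; the bead arrays of brain regions were not used here. The deposited processed signal is the spot intensity after background subtraction, per the file headers (Feature Extraction 10.7.3.1, design 028005); the submitters' processing notes name R 2.15.3. Each array was divided by the 75th percentile of its processed signal, floored at 0.0325 (-4.94 on the log2 scale) and put on the log2 scale. Outlier spots were left out, so Rps10, Rps27 and Rpl22l1 have 1 KO value missing at 4 months. Rps2, Rps29 and Rpl11 lack a value on WT array 4 at 16 months, so their value for WT replicate 3 and 4 is that of array 3. Of 55681 probes, 45616 passed the filter (well above background on 3 or more arrays). Transcript identifiers were named through RefSeq genes of GRCm38.p6, and 26582 probes had a symbol. One limma 3.58.1 model (in R 4.3.3) held the 4 groups, and tests were two-sided. On simulated data for KO minus WT at 16 months (31657 features), changes of 1 and 2 log2 units gave median estimates of 1.07 and 1.95. Of these 7% and 12% were called, with 2 false calls. The simulation changed 100 features by each amount and gave all groups the same spread. In the data 34.3% of features passed, and the members' median SD was 0.79 in KO at 16 months and 0.19 in WT at 4 months. The shares called and the false calls therefore do not describe the tests reported above. The number of arrays limits precision. Named members are the up to 12 with the largest differences per direction and comparison among those that passed, the 3 highest and lowest at each age, and a list of members with known roles or paralogs; others are named where a count is spelled out. The members and lists were chosen with earlier results of these data known. The labels do not say that replicate numbers pair the samples, and the main fit used no pairing. Same-numbered deviations correlated at -0.0372 to -0.0281 at 4 months and others at -0.0444 to 0.0459. At 16 months these were 0.0898 to 0.139 and -0.151 to 0.135. There KO replicates 1 and 2 correlated positively with WT arrays 1 and 2 and negatively with 3 and 4. KO replicates 3 and 4 did the reverse. Deviations were taken from the group mean, and the WT arrays nearly match within each pair. Opposite signs for the 2 pairs of WT arrays were therefore fixed in advance. A fit with a replicate block used the replicate numbers at 4 months. At 16 months its blocks were KO replicates 1 and 2 with WT arrays 1 and 2, and 3 and 4 likewise. These are the groupings that correlated positively in these same data. This fit gave 14 higher members at 16 months (13.7% of all features). Some genes are counted but not reported here by name.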

Additional observations from a re-analysis of the deposited data

Results flagged for a closer look

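Among 89 groups of 4 replicates tested for a replicate far from the rest, over the named genes and the median of the 85 genes, 4 held one; chance alone flags about 1 in 20. All 4 were in WT microglia at 4 months. Rpl39l had a lowest value of -2.45, with the next at -0.36. Rps27l had a lowest value of 4.86, with the next at 5.34. Rplp2 had a highest value of 8.19, with the next at 7.70, and Rps24 one of 7.61, with the next at 7.23. The KO effect differed between 16 and 4 months, by the test of that difference, in Rps2 (2.70), Rpl7l1 (2.03), Rpl14 (1.29) and Rps3a1 (1.28).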

How the results depend on the processing

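Counts at 16 months moved with the scaling and the samples fitted. Quantile normalization gave 10 lower members (17% of all features), Rpl22l1 among them (-0.69, adjusted p = 0.0128 by limma, from 0.06). It also gave 2 lower in the difference between ages. With the 75th percentile taken over probes above background on all arrays, 2 were lower (18.7% of all features), and 7 higher in the difference between ages. Centring each array on its median feature gave 36 higher (26.4% of all features), and 9 in the difference between ages. It moved the median of all features from 0.12 to 0.40. Requiring probes above background on all 15 arrays gave 0 lower (15.8% of all features), and 2 in the difference between ages. The 15 arrays as separate samples gave 36 higher (26.5% of all features) and 2 lower (19.7%). That fit also gave 13 in the difference between ages, and 2 lower in WT with age. The 16-month arrays alone gave 3 higher and 0 lower (5.47% of all features higher and 5.23% lower). Normexp on median spot signals, added after seeing the data in place of the planned normexp on mean spot signals, which was not run, gave 2 higher in the difference between ages and 1 lower in WT with age. The replicate block gave 14 higher (13.7% of all features) and 1 in the difference between ages. Over the fits that leave out 1 replicate each, the counts at 16 months were 9 to 35 higher (fewest without WT replicate 1 and 2, most without KO replicate 4, and 18 to 23 without a 4-month replicate) and 0 to 8 lower, those of the difference between ages 1 to 10 higher and 0 to 2 lower, and those of WT with age 0 to 1 lower. For the counts of the difference between ages and of WT with age in these fits, the share over all features is not given here. The causes were not tested. No member passed at 4 months in any fit. The median at 16 months was -0.01 to 0.94 over all fits. Rpl14, Rpl15, Rpl19, Rpl7l1, Rps2 and Rps7 were higher in each fit except that of the 16-month arrays alone, where Rps2, Rps3a1 and Rps7 were.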
